A study of Mus musculus with 4 samples.

Results

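The genes described here encode the chaperones, disulfide enzymes, degradation factors, stress sensors and translocation machinery of the endoplasmic reticulum (ER), the compartment in which secreted proteins are folded. They come from a list of 36 gene symbols, each taken from a row of the array table annotated with exactly that symbol, and the brightest such row was kept where a gene had several. Of the 36 listed genes 32 were found, out of 22180 genes measured. Pdia2, Pdia4, Ero1l and Ero1lb had no row under those symbols.

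RNA of whole pancreas was measured on Affymetrix arrays in adult mice aged 8 weeks. All mice had received cerulein, a peptide that acts like the hormone cholecystokinin and injures the pancreas by driving its acinar cells too hard, by intraperitoneal injection at 100 µg/kg, 6 times per day on alternate days up to day 5. The series set wild-type mice (2 arrays) against mice null for Ifrd1, a transcriptional co-regulator (2 arrays), to look at the proliferating stage of injury. Both groups were injured, and untreated pancreas is not analysed here. The sources used here do not give the strain, the sex or the design of the null allele. The labels call the samples biological replicates but do not say from which litter or day each came.

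Acinar cells make and secrete large amounts of digestive enzymes, so their ER is extensive and its folding machinery abundant. When unfolded proteins accumulate, the sensors Ire1 (gene Ern1), Atf6 and Perk (gene Eif2ak3) start the unfolded protein response. Ire1 splices the mRNA of the transcription factor Xbp1, Atf6 is itself cut into a transcription factor, and Perk slows translation. Xbp1 and Atf6 act on promoters of chaperone and degradation genes through ER stress response elements. The arrays measure RNA levels, not splicing of Xbp1, cleavage of Atf6 or activity of Perk.

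Letters matching such elements stand before 9 of the genes described here, and they are shown because Xbp1 and Atf6 act through such elements. The 250 bases before each annotated gene start were searched, on both strands, for the element ERSE (CCAAT, 9 bases of any kind, then CCACG) and the shorter element ERSE-II (ATTGG, 1 base of any kind, then CCACG) in the RefSeq promoter table of GRCm38.p6. The letters of ERSE were present in 8 of 27 ER promoters (29.6%) and in 37 of all 32851 promoters (0.113%). ERSE-II was present in 1 of the 27, that of Herpud1, and in 10 of all promoters (0.0304%). The letters CCACG alone, which both elements contain, occurred in 77.8% of the ER promoters and in 28.3% of all promoters. The other 5 measured genes had no entry in the table. In the stretches below, written 5′ to 3′ on the gene's strand, capitals mark the element.
Hspa5 (chr2:34772005-34772063, + strand): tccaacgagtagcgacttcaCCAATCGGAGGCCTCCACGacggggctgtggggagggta
Creld2 (chr15:88819500-88819558, + strand): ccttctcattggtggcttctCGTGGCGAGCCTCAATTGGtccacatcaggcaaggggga
Syvn1 (chr19:6046512-6046570, + strand): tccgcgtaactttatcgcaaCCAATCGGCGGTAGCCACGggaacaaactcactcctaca
Herpud1 (chr8:94386357-94386407, + strand): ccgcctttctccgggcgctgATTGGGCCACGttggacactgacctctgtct
Dnajc3 (chr14:118937807-118937865, + strand): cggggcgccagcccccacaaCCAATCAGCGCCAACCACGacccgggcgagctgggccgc
Canx (chr11:50325780-50325838, - strand): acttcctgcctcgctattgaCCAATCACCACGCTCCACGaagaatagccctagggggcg
Hsp90b1 (chr10:86705513-86705676, - strand): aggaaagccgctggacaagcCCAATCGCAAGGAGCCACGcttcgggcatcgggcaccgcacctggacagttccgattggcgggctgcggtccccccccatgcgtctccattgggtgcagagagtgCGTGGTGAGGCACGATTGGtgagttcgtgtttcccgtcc

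Hspa5, Syvn1, Dnajc3, Canx and Herpud1 carry the element in the reading direction of the gene, and Creld2 carries it on the opposite strand, where it reads CGTGG first and ATTGG last. Hsp90b1 has 2 elements, 1 in each direction. Calr and Pdia6 hold 1 each. The elements of these 9 genes began between positions -212 and -44, counted from the gene start. A match of letters is not a measured binding site.

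**Figure D1:**
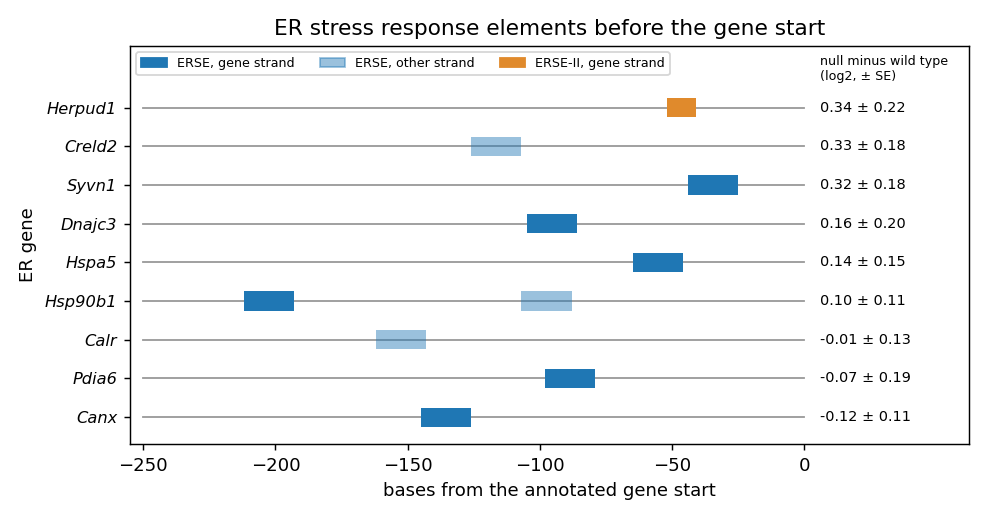
Position of ER stress response elements in the 250 bases before the gene start of 9 ER genes, with each gene's Ifrd1 null minus wild-type difference (log2, ± limma SE, 2 arrays per group) at the right. Genes are ordered by that difference, from Canx at -0.12 ± 0.11 to Herpud1 at 0.34 ± 0.22.

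All 32 ER genes lay above the median of genes in every array, and so did the 18 measured acinar enzyme genes, so the defining markers of the labelled tissue were present. Ifrd1 stood at 9.04 and 9.07 in wild type and at 6.99 and 7.09 in the null (log2), a difference of -2.02 ± 0.11 (SE; limma adjusted p = 0.138). Xist gave 2.56 and 3.54 in the wild-type arrays and 10.15 and 9.58 in the null arrays, and the Y-linked gene Uty was at 6.41 and 6.40 against 2.25 and 2.36. The arrays thus differ in sex-linked genes along with genotype, and genotype and sex cannot be told apart. None of the 32 genes (0) is annotated to X or Y. Intestinal epithelium markers were highest in wild type 1, at a mean of 4.97 against 3.67 to 3.91 in the other arrays, and their part in the results was not tested.

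In the values as deposited the ER genes split evenly between higher and lower in the null. By limma with Benjamini-Hochberg adjustment over all genes, 0 of 32 passed an adjusted p of 0.05 (adjusted p from 0.721 to 0.999), where 0.00451% of all genes did. At unadjusted p under 0.05 there was 1 gene, Dnajb9, against 6.91% of all genes. The median difference, null minus wild type, was -0.00018 over the 32 genes and -0.07 over all genes above the median level. Of the 32 genes 16 were higher and 16 lower in the null, while 32.6% of genes above the median level were higher. The 2 null arrays lay outside the range of wild type on the same side for 9 of 32 genes, against 35.8% of all genes, with 7 higher (16.1% of all genes) and 2 lower (19.7%).

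That even split rested on the scaling and on which null array was present. With quantile normalization the median was 0.07 and 23 of 32 were higher, and with cyclic loess it was 0.11 and 25 of 32 were higher. In these scalings 49.4% and 50.4% of genes above the median level were higher. Without Ifrd1 null 1 the median was 0.30 with 28 higher, and without Ifrd1 null 2 it was -0.24 with 8 higher. No ER gene passed the adjusted threshold in any of these fits.

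**Figure D2:**
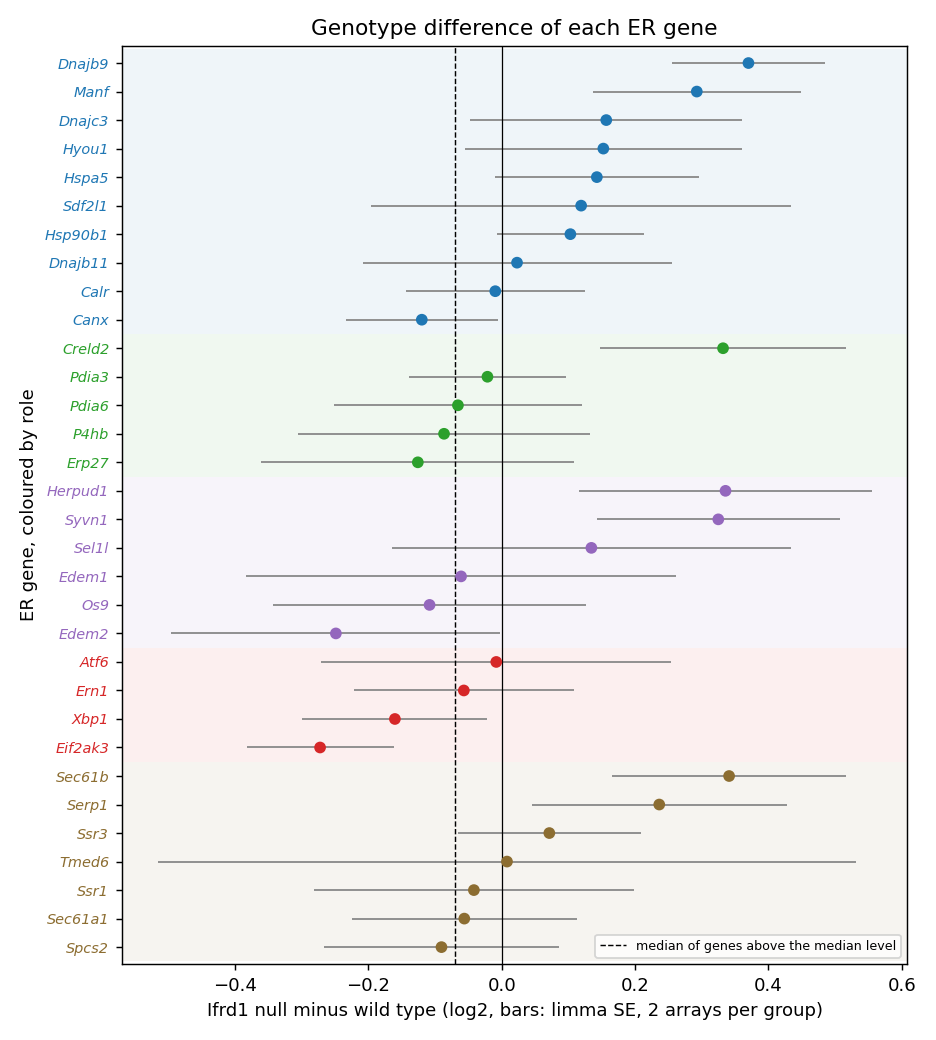
Ifrd1 null minus wild-type difference of each of the 32 ER genes on the log2 scale, with limma SE bars (2 arrays per group), grouped and coloured by role in the order chaperones, disulfide formation, degradation, sensors and translocation. The points run from -0.27 for Eif2ak3 to 0.37 for Dnajb9, and the dashed line marks the median of genes above the median level, -0.07.

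Of the chaperones and their helpers 8 of 10 had a difference above 0, with a median of 0.13. That count rested on null 2: against the wild-type mean 9 of 10 were above 0 in null 2 (median 0.37) and 3 of 10 in null 1 (median -0.10). Dnajb9 (ERdj4), a J-domain cochaperone of BiP that restrains Ire1, was at 7.03 and 7.17 in wild type and at 7.42 and 7.52 in the null. Both null arrays lay above both wild-type arrays, and the difference of 0.37 ± 0.12 (1.29-fold; limma adjusted p = 0.721) was larger than the spread within either group. Dnajb9 lies on chromosome 12 like Ifrd1, with 4 protein-coding genes between them. Of those 4 genes 3 were measured, and the groups overlapped for each (median difference -0.09). Pdia6 and Sel1l also lie on chromosome 12, with 115 and 307 protein-coding genes between them and Ifrd1. Whether linkage to the null allele bears on Dnajb9 or on these genes was not tested.

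Manf, a small secreted protein released under ER stress, was at 5.04 and 5.19 in wild type and at 5.24 and 5.57 in the null. The groups did not overlap, but the difference of 0.29 ± 0.16 (limma adjusted p = 0.752) was no larger than the distance between the null arrays (0.32), and it was 0.13 without null 2. Its level is near the median of genes (4.66 to 4.70), where signal above background is not shown. Hsp90b1 (Grp94), the ER member of the Hsp90 chaperones, was at 10.68 and 10.76 in wild type and at 10.89 and 10.76 in the null, so the groups touch without overlapping (difference 0.10 ± 0.11, with 0.19 under cyclic loess and 0.04 without null 1).

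Hspa5 (BiP), the Hsp70 chaperone of the ER, was at 8.63 and 8.71 in wild type and at 8.65 and 8.99 in the null. Ifrd1 null 2 was the high array, and null 1 sat between the wild-type arrays (difference 0.14 ± 0.15). Its nucleotide exchange factor Hyou1 showed 8.81 and 8.88 against 8.73 and 9.27. The cochaperone Dnajc3, which binds unfolded proteins, showed 9.35 and 9.45 against 9.29 and 9.81. Sdf2l1, a partner of BiP complexes, was at 8.05 and 8.29 against 7.86 and 8.72. Dnajb11 had 8.56 and 8.69 against 8.34 and 8.95. In these 4 genes null 1 was the lowest array and null 2 the highest, so their differences (0.02 to 0.16) were below their SE.

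The lectin chaperones, which hold newly made glycoproteins, did not share that order. Calr, soluble in the lumen, was at 10.22 and 10.43 in wild type and at 10.23 and 10.40 in the null, a difference of -0.01 ± 0.13. Canx, its membrane-bound counterpart, was at 10.30 and 10.48 against 10.26 and 10.28. Both null values of Canx lay below both wild-type values, by 0.03 at the closest, and the difference was -0.12 ± 0.11 (limma adjusted p = 0.809), or -0.03 both with cyclic loess and without wild type 2.

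Among the genes of disulfide formation 4 of 5 were below 0. The exception was Creld2, an ER protein induced by stress with disulfide isomerase activity, at 8.96 and 9.14 in wild type and 9.16 and 9.59 in the null. The groups did not overlap (0.33 ± 0.18, 1.26-fold; limma adjusted p = 0.760), though the gap between wild type 2 and null 1 was 0.03 and the difference was 0.12 without null 2. P4hb, the founding protein disulfide isomerase, was at 10.54 and 10.66 against 10.23 and 10.80. Pdia6 (9.38 and 9.50 against 9.15 and 9.60) and Erp27 (9.38 and 9.23 against 8.87 and 9.49), a non-catalytic family member, had the same order, with null 1 lowest and null 2 highest. Pdia3, which works on glycoproteins with Calr and Canx, was at 9.82 and 9.83 against 9.90 and 9.71, with null 2 lowest. Against the wild-type mean 2 of 5 disulfide genes were above 0 in null 1 (median -0.29) and 4 of 5 in null 2 (median 0.18). With cyclic loess the differences of Pdia3 and Pdia6 were above 0.

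The oxidases that recharge these enzymes, listed as Ero1l and Ero1lb, were found outside the rule under their current symbols. Ero1a was at 8.09 and 8.31 in wild type and 7.97 and 8.39 in the null. Ero1b, the form of secretory tissues such as pancreas, was at 9.30 and 9.20 against 8.89 and 9.94. Null 1 was lowest and null 2 highest for both, and neither differed by genotype beyond its SE (-0.02 ± 0.19 and 0.16 ± 0.37).

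Genes of ER-associated degradation, which pulls misfolded proteins out for the proteasome, divided into 3 above 0 and 3 below. Against the wild-type mean 2 of 6 were above 0 in null 1 (median -0.35) and 6 of 6 in null 2 (median 0.47). Herpud1, an adaptor of the Hrd1 ubiquitin ligase, was at 9.58 and 9.52 in wild type and at 9.59 and 10.17 in the null. The groups did not overlap, but null 1 was within 0.02 of wild type 1, so the difference (0.34 ± 0.22, limma adjusted p = 0.769) came from null 2, without which it was 0.05. Syvn1, the Hrd1 ligase itself, was at 7.09 and 7.27 against 7.29 and 7.71, also without overlap (0.32 ± 0.18, 1.25-fold; limma adjusted p = 0.760), and at 0.11 without null 2. Sel1l, the scaffold of that ligase, had 10.53 and 10.47 against 10.21 and 11.05.

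The mannosidase-like and lectin factors that select glycoproteins for disposal separated the null arrays widely. Edem1 was at 9.64 and 9.58 in wild type and at 9.09 and 10.004 in the null. Edem2 was at 9.40 and 9.32 against 8.78 and 9.44, and had the lowest difference of this group (-0.25 ± 0.25). Os9 was at 8.99 and 9.12 against 8.64 and 9.26. Null 1 was below and null 2 above both wild-type arrays in all 3.

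None of the sensors and their factor Xbp1 was above 0 (0 of 4), but the signs of Atf6 and Ern1 turned with quantile normalization and cyclic loess. Eif2ak3 (Perk) was at 9.12 and 9.24 in wild type and at 8.95 and 8.87 in the null. Both null arrays lay below both wild-type arrays, and the difference of -0.27 ± 0.11 (1.21-fold lower; unadjusted p = 0.0629 and adjusted p = 0.722 by limma) was larger than the distance from wild type 1 to wild type 2 (0.12) and from null 1 to null 2 (-0.08). With cyclic loess it was -0.17. Xbp1 was at 10.68 and 10.88 against 10.52 and 10.73, an overlapping difference of -0.16 ± 0.14, or -0.08 with cyclic loess and -0.06 without wild type 2 or without null 1. Ern1 (Ire1) was at 8.10 and 8.18 against 7.89 and 8.28 (-0.06 ± 0.17). Atf6 was at 7.93 and 8.09 against 7.65 and 8.36 (-0.01 ± 0.26). Ern1 and Atf6 had null 1 lowest and null 2 highest, while Eif2ak3 was lowest in null 2.

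The translocation genes, which move nascent chains into the ER, had 4 of 7 above 0 and a median of 0.01. Against the wild-type mean 1 of 7 was above 0 in null 1 (median -0.26) and 7 of 7 in null 2 (median 0.28). With cyclic loess the 3 below 0, Sec61a1, Ssr1 and Spcs2, were above it. Sec61a1, the channel subunit, was at 10.09 and 10.06 in wild type and at 9.82 and 10.22 in the null. Sec61b, the small channel subunit, was at 5.22 and 4.83 against 5.28 and 5.46, without overlap (0.34 ± 0.18, limma adjusted p = 0.747), but the wild-type arrays were 0.39 apart, its level is close to the median of genes, and the difference was 0.14 without wild type 2. Ssr1, a translocon-associated subunit, had 9.003 and 9.004 against 8.64 and 9.29, and its partner Ssr3 had 8.49 and 8.54 against 8.45 and 8.73.

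Spcs2, a signal peptidase subunit, was at 7.99 and 8.11 in wild type and at 7.75 and 8.17 in the null (-0.09 ± 0.18). Serp1, a stress-associated translocon protein, was at 9.24 and 9.14 against 9.19 and 9.67 (0.24 ± 0.19). Tmed6, of a family of cargo receptors between ER and Golgi, was at 8.33 and 8.26 in wild type and at 7.54 and 9.06 in the null. Its null arrays were 1.53 apart (2.88-fold), the widest of the 32 genes, around a mean difference of 0.01 ± 0.52.

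**Figure D3:**
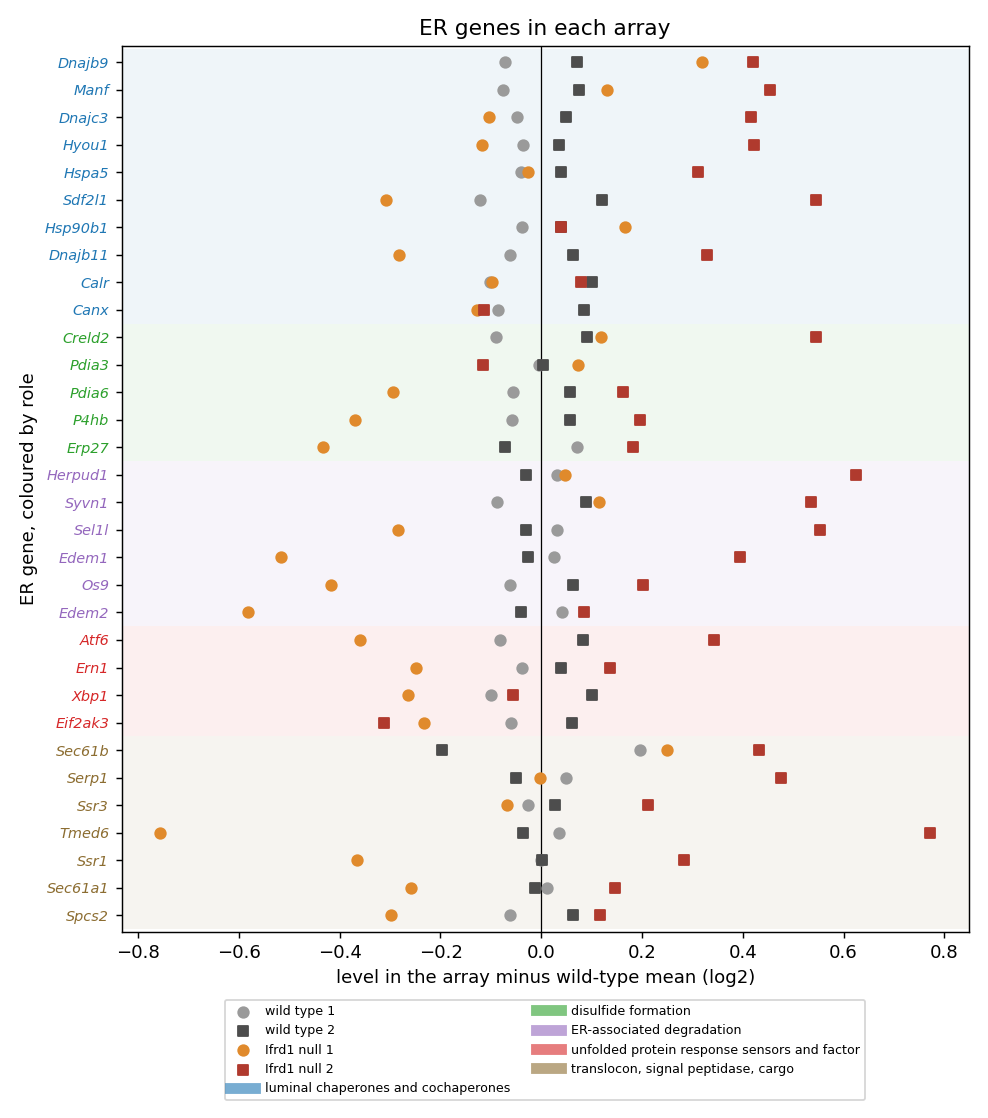
Level of each of the 32 ER genes in every array minus the gene's wild-type mean (log2), grouped by role. The wild-type points lie close to 0, while Ifrd1 null 2 lies to the right of null 1 for 29 of 32 genes, most widely for Tmed6 (1.53 apart).

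The main pattern was thus a separation of the null arrays from each other. Ifrd1 null 2 was above null 1 for 29 of 32 genes, with a median distance of 0.44, against 50.03% of all genes and 46.9% of genes above the median level. The exceptions were Pdia3 (-0.19), Hsp90b1 (-0.13) and Eif2ak3 (-0.08). Null 1 was below and null 2 above both wild-type arrays for 18 of 32 genes, and for 10.2% of all genes. The absolute distance between the wild-type arrays had a median of 0.11 over the ER genes, and 27 of 32 genes had a larger SD in the null than in wild type, against 55.4% of all genes. These are single arrays, so their distance has no test.

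Markers of acinar cells were ordered the same way. The mean level of the 18 acinar enzyme genes was 12.31 and 12.25 in wild type, 12.05 in null 1 and 12.60 in null 2, and all 18 were higher in null 2 than in null 1 (median distance 0.56). The 8 other acinar genes, among them the factors Ptf1a and Rbpjl, the receptor Cckar and the enzymes Gatm and Gnmt, had means of 8.53 and 8.50 against 8.17 and 8.82 (8 of 8, median 0.51). The mean over the ER genes was 8.88 and 8.94 against 8.73 and 9.18.

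Markers of 4 other cell types ran the opposite way, being higher in null 1 than in null 2. Plasma and B cell markers (9 of 10 measured) had mean levels of 5.77 and 5.61 in wild type, 6.46 in null 1 and 5.37 in null 2, and 7 of 9 were lower in null 2 than in null 1. That list includes Derl3, an ER degradation gene that acinar cells express too. Macrophage markers (10 of 10) were at 8.63 and 8.73 against 8.78 and 8.21, and fibroblast markers (9 of 9) at 9.25 and 9.12 against 9.34 and 8.75. Adipocyte markers (6 of 6) were at 5.31 and 5.85 against 6.37 and 5.06. By mean level the intestinal epithelium, duct, islet, endothelial and T cell lists lay on 1 side of both wild-type arrays in both null arrays. Intestinal epithelium markers (8 of 8) were at 4.97 and 3.91 against 3.67 and 3.73, with 6 of 8 lower in the null (median -0.78). Of these Cdx1, Cdx2 and Fabp2 were below the median of genes in all 4 arrays. Duct markers (9 of 11 measured) were at 8.45 and 8.52 against 8.25 and 8.07, with 8 of 9 lower in the null (median -0.38). Islet genes (7 of 8) were at 8.33 and 8.17 against 8.02 and 7.97, with 5 of 7 lower (median -0.32). The 2 higher were Gcg (10.63 and 10.42 against 10.75 and 10.79) and Sst (8.74 and 8.38 against 8.77 and 8.88). Endothelial markers (7 of 7) were at 6.35 and 6.34 against 6.17 and 6.12, with 6 of 7 lower (median -0.20). T cell markers (6 of 8) were at 4.25 and 4.51 against 4.95 and 4.53, and 6 of 6 were higher (median 0.30), though 6 of 6 were also higher in null 1 than in null 2. By limma 0 genes of these lists passed the adjusted threshold. At unadjusted limma p under 0.05 there were 4 duct, 4 islet, 2 endothelial and 2 intestinal epithelium genes, 1 T cell gene and 1 macrophage gene. Over all genes 6.91% had such a p, and of genes above the median level 32.6% were higher in the null. Tnfrsf17, a plasma cell receptor, and Lep were below the median of genes in all 4 arrays, as were Cd3d and Cd8a among the T cell markers. The part of tissue composition in the ER values was not tested, and in whole tissue fewer cells of a type and less RNA per cell cannot be told apart.

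**Figure D4:**
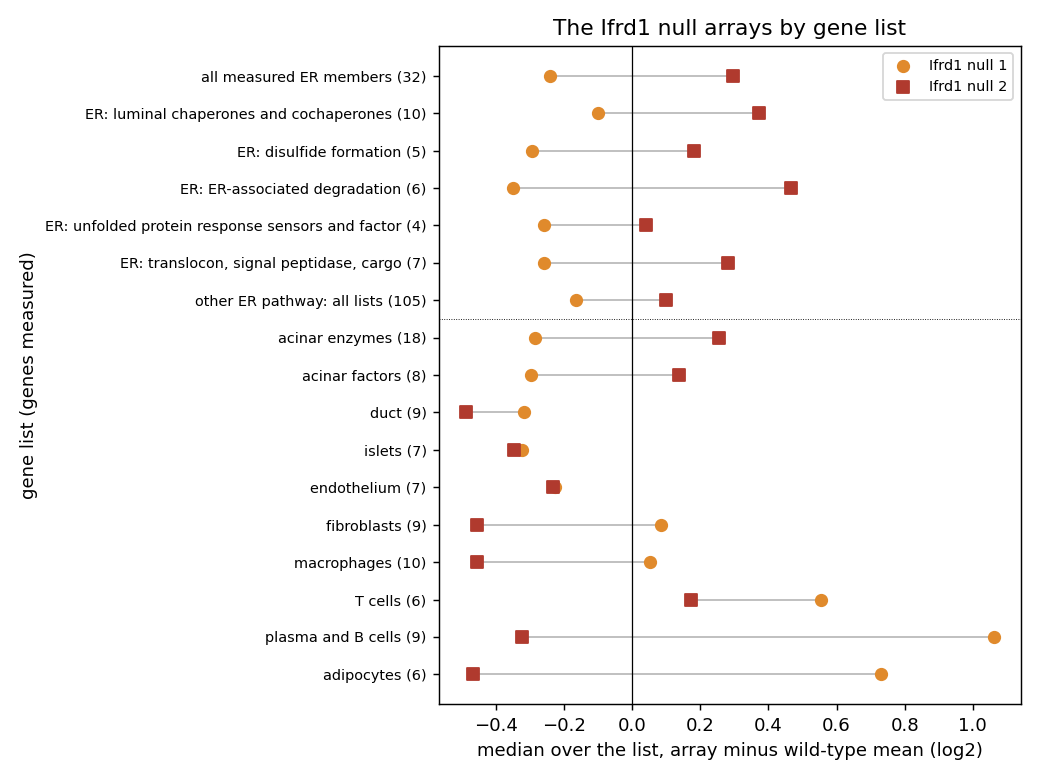
Median over each gene list of the level in Ifrd1 null 1 and in Ifrd1 null 2 minus the wild-type mean (log2), with the number of genes measured in brackets. The ER genes (-0.24 and 0.30) and acinar enzymes (-0.28 and 0.25) lie on the same sides of 0, while macrophage, fibroblast, plasma and B cell and adipocyte markers lie above 0 in null 1 and below 0 in null 2. Duct, islet and endothelial markers lie below 0, and T cell markers above 0, in both.

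To show which ER genes departed from that shared order, each level was set against the median of the 32 ER genes in the same array (9.06 and 9.14 in wild type, 8.82 and 9.37 in the null). On this relative scale 9 genes were higher in both null arrays than in both wild-type arrays, 4 were lower and 19 overlapped. Over all genes, set against the same ER medians, 7.06% were higher and 6.6% lower, but the ER genes define those medians, so their counts cannot be read against these shares. The 9 were Hspa5, Hyou1, Dnajb9, Dnajc3, Manf, Creld2, Herpud1, Syvn1 and Serp1. Dnajb9 was at -2.03 and -1.96 in wild type and at -1.40 and -1.84 in the null, and Herpud1 at 0.51 and 0.38 against 0.77 and 0.80. Hspa5 was at -0.43 and -0.42 against -0.18 and -0.38. Creld2 was at -0.11 and -0.0025 against 0.34 and 0.23, and Syvn1 at -1.97 and -1.87 against -1.53 and -1.65.

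The 4 lower genes were P4hb, Pdia6, Edem2 and Os9. Edem2 was at 0.34 and 0.18 in wild type and at -0.05 and 0.08 in the null, while P4hb (1.48 and 1.52 against 1.40 and 1.43) and Pdia6 (0.32 and 0.36 against 0.32 and 0.24) differed little. Eif2ak3 was low only in null 2 on this scale (0.06 and 0.10 against 0.12 and -0.50), as was Canx (1.24 and 1.34 against 1.44 and 0.91). A relative level shows unequal change among the ER genes, and this grouping was made from the values and was not tested.

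**Figure D5:**
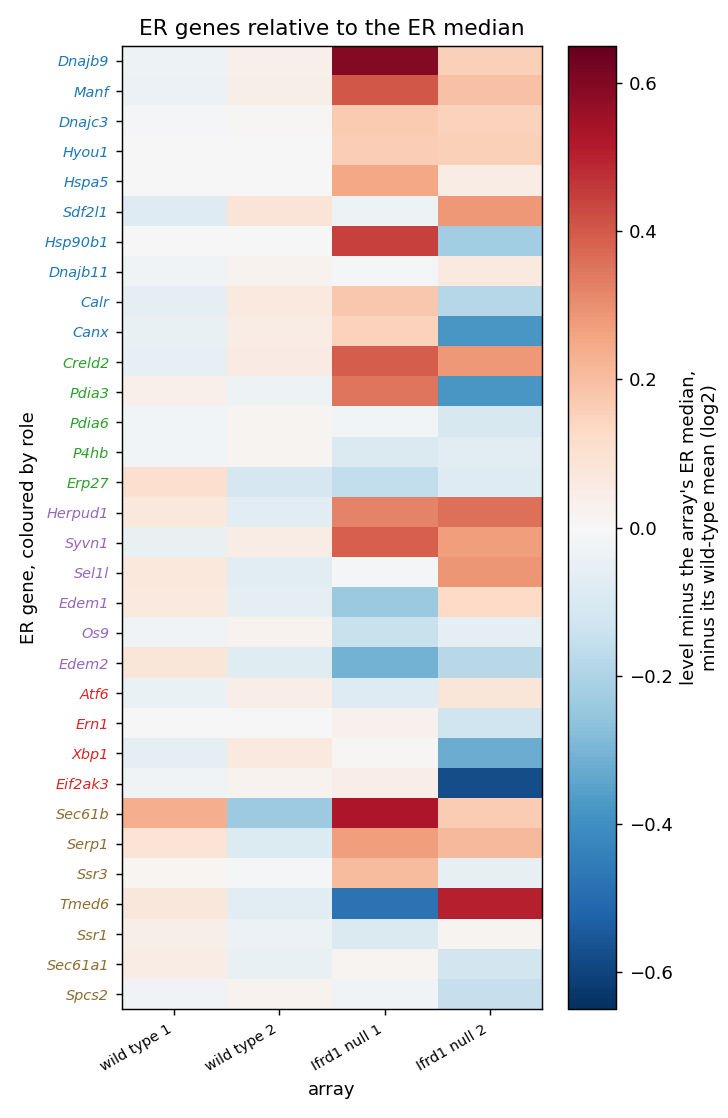
Level of each ER gene minus the median of the 32 ER genes in the same array, shown as the difference from the gene's wild-type mean (log2, red higher and blue lower). Dnajb9, Manf, Creld2, Herpud1, Syvn1 and Serp1 are red in both null columns, Eif2ak3 and Canx are blue in null 2, and Tmed6 is blue in null 1 and red in null 2.

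Set beside the promoters shown above, the 9 genes with an element had a median genotype difference of 0.14 (range -0.12 to 0.34), and 6 of 9 were above 0. Their median against the wild-type mean was -0.03 in null 1 (4 of 9 above 0) and 0.31 in null 2 (8 of 9), so its sign rested on null 2. The 18 genes with a promoter entry but no element in the window had a median of -0.03 (range -0.27 to 0.37), with 8 above 0, and -0.28 in null 1 and 0.25 in null 2. Groups did not overlap, with the null higher, for 4 of the 9 (Hsp90b1, Creld2, Syvn1 and Herpud1) and for 2 of the 18 (Dnajb9 and Sec61b), where 16.1% of all genes did so. With the null lower there was 1 of the 9 (Canx) and 1 of the 18 (Eif2ak3), against 19.7% of all genes. The distance from null 1 to null 2 was 0.42 with an element and 0.52 without. The ranges overlap, and the difference between these sets was not tested.

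The rest of the pathway comprised 110 listed genes, of which 105 were measured. By limma 0 of 105 passed the adjusted threshold and 4 had unadjusted p under 0.05, all lower, where 6.91% of all genes had such a p. Their median difference was -0.03, with 47 higher and 58 lower, and null 2 was above null 1 for 89 of 105 (median distance 0.27). Of 14 measured degradation genes 13, and of 23 genes of ER-to-Golgi transport 21, were higher in null 2.

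Of the stress signalling genes 14 of 17 had a difference below 0, with a median of -0.14. Against the wild-type mean 1 of 17 was above 0 in null 1 (median -0.21) and 7 of 17 in null 2 (median -0.04). Genes above the median level also leaned to lower values, with a median of -0.07 and 32.6% higher. The lowest was Mbtps2, the membrane protease that completes the cut of Atf6, at 6.57 and 6.72 in wild type and 6.24 and 6.34 in the null (-0.35 ± 0.12, limma adjusted p = 0.721). The highest was Bhlha15 (Mist1), an acinar transcription factor, at 7.62 and 7.34 against 7.31 and 8.14. N-glycosylation genes had a median of -0.07, and against the wild-type mean -0.14 in null 1 and 0.05 in null 2. Prkcsh, the glucosidase II regulatory subunit, was at 7.96 and 8.02 against 7.61 and 7.68 (-0.35 ± 0.10). Dad1, an oligosaccharyltransferase subunit, was at 11.11 and 11.12 against 11.15 and 11.48. The genotype groups overlapped for neither gene, and neither passed over all genes (limma adjusted p = 0.721 and 0.781).

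In folding, Txndc12, a thioredoxin-domain protein, was at 6.39 and 6.50 in wild type and at 6.10 and 6.10 in the null (-0.35 ± 0.10), and Fkbp11, a prolyl isomerase of secretory cells, was at 8.36 and 8.30 against 8.17 and 9.30. Among degradation genes Vcp, the segregase that extracts substrates, was at 9.27 and 9.31 against 9.01 and 9.07 (-0.25 ± 0.10), and Derl3 was at 8.32 and 8.26 against 7.86 and 9.25. For translocation the extremes were Sec11a, a signal peptidase subunit (-0.13 ± 0.10), and Srp19 of the signal recognition particle (0.15 ± 0.12). In ER-to-Golgi transport Tmed9 was at -0.22 ± 0.15, and Tmed11 stood at 5.88 and 5.77 against 5.35 and 7.44. The highest differences in folding, degradation, signalling and transport (Fkbp11, Derl3, Bhlha15 and Tmed11) each came with null 2 highest and null 1 lowest, and their SE (0.31 to 0.71) exceeded or nearly equalled the difference.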

How the data were processed

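The deposited table holds 1 value per array and probe set for 4 arrays, treated as log2 levels: the authors' unit, background correction, summary and normalization are not given in the sources used here, and the log2 scale was read from the values (0.218 to 13.92). Array medians were 4.08 to 4.15. Of 41345 rows, 23521 had 1 gene symbol, 1814 several and 16010 none here, which gave 22180 genes after the row with the highest mean was kept per gene. Groups were compared with limma 3.58.1 (lmFit, eBayes) in R 4.3.3 without covariates, two-sided, with Benjamini-Hochberg adjustment over all 22180 genes at 0.05, and checked on simulated data. Errors of differences are SE. An exact permutation test of 2 arrays against 2 has a smallest possible p of 0.333, so none was run, and the number of arrays limits every value. A limma p-value sets a difference against the spread between arrays of a group, which eBayes adjusts using all genes.

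No filter or detection call was applied. The rule for named genes took Ifrd1, the members of largest difference, smallest p and highest level, the sensors, the extremes of each role group, and the highest and lowest difference of each further list; values of the remaining members are given as well. The members and lists were chosen with earlier results of these data known. Symbols and promoters come from RefSeq tables of GRCm38.p6. No array column belonged to another sample (0). Alternatives were quantile normalization, cyclic loess, median centring, a level filter, the mean of rows, trend with robust eBayes, the replicate number as a block, leaving out each array, and leaving out 46 genes of zero spread within groups, the last chosen after seeing the data.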

Additional observations from a re-analysis of the deposited data

How the results depend on the processing

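No ER gene passed the adjusted threshold under any alternative (lowest limma adjusted p 0.473), and 10 of 32 kept the sign of their difference in all of them: Dnajb9, Manf, Hsp90b1, Canx, Creld2, Herpud1, Syvn1, Eif2ak3, Xbp1 and Sec61b. The level filter, trend with robust eBayes, the replicate block and leaving out genes of zero spread leave every ER difference as it was. Their values are among the 384 of ER genes under alternatives, but could not change sign. The mean of rows could change only the 4 ER genes with more than 1 row. Of the 384 values, 46 changed sign. With cyclic loess these were Calr (0.0798), Pdia3 (0.075), Pdia6 (0.036), Edem1 (0.038), Ern1 (0.052), Atf6 (0.10), Sec61a1 (0.037), Ssr1 (0.064) and Spcs2 (0.018), and 25 of 32 genes were higher. With quantile normalization they were Calr (0.052), Pdia3 (0.022), Edem1 (0.015), Ern1 (0.0204), Atf6 (0.067), Sec61a1 (0.0052) and Ssr1 (0.034). With the mean of all rows they were Ssr1 (0.11) and Spcs2 (0.064), and with median centring Tmed6 (-0.0073). The cause was not tested. Leaving out each array in turn, 22 genes changed sign: Tmed6 ran from -0.76 to 0.77, Atf6 from -0.36 to 0.34, Calr from -0.11 to 0.092, Dnajb11 from -0.28 to 0.33, Dnajc3 from -0.10 to 0.42, Edem1 from -0.52 to 0.40, Edem2 from -0.58 to 0.085, Ern1 from -0.25 to 0.14, Erp27 from -0.43 to 0.18, Hspa5 from -0.026 to 0.31, Hyou1 from -0.12 to 0.42, Os9 from -0.42 to 0.20, P4hb from -0.37 to 0.20, Pdia3 from -0.11 to 0.072, Pdia6 from -0.29 to 0.16, Sdf2l1 from -0.31 to 0.55, Sec61a1 from -0.26 to 0.15, Sel1l from -0.28 to 0.55, Serp1 from -0.0024 to 0.47, Spcs2 from -0.30 to 0.12, Ssr1 from -0.37 to 0.28 and Ssr3 from -0.068 to 0.21. Their median ran from -0.24 to 0.30 and the number higher from 8 to 28. Without Dnajb9 the median was -0.0082. Over all genes 1 gene, Uty, passed the threshold, 4 did with cyclic loess and with the replicate block, 5 with median centring and with trend and robust eBayes, 0 among genes above the median level, and 0 without each array. The correlation of same-numbered deviations was -0.04 across genes. It sets 1 wild-type difference against 1 null difference, so it cannot show whether the replicate numbers pair the samples. In this balanced design the block cannot change a difference. With it the unadjusted limma p of Dnajb9 was 0.0491 in place of 0.0282 (adjusted p = 0.860). Levels close to the median of genes (Manf, Sec61b) limit those values.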

Other observations

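The letters of ERSE also stood in the promoters of 19 measured genes outside the list described above. Over these 19 genes the median difference, null minus wild type, was 0.15, with 13 higher. Of all genes 47.2% were higher and of genes above the median level 32.6%, so the share was larger among genes below that level. The median of the 19 against the wild-type mean was -0.11 in null 1 and 0.24 in null 2. By limma 0 passed the adjusted threshold and 2, Zfp57 and the X-linked Xlr3a, had unadjusted p under 0.05, where 6.91% of all genes did. Many of the 19 lay below the median of genes in every array. Among those that act in the ER, Alg12, a mannosyltransferase of N-glycan synthesis, was at 6.70 and 6.78 in wild type and at 6.57 and 7.17 in the null. Derl3, a channel component of ER-associated degradation, and Ero1b repeated the order of most ER genes, with null 1 lowest and null 2 highest (1.39 and 1.05 apart). Calr4, of the calreticulin family, did not: it was at 2.14 and 1.60 in wild type and at 2.13 and 1.80 in the null, below the median of genes. These genes were found by sequence alone, and those named were chosen after their values were seen.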
